A study of Rattus norvegicus with 24 samples.

Results

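The comparison set left ventricles of male Wistar rats taken 12 weeks after spinal cord transection against left ventricles taken 1 day after it. The contrast was between 12 of the 24 libraries of the series, chosen by their labelled collection time, with 6 libraries in each group. Every rat of both groups had its cord completely transected high in the thorax (spinal cord injury, SCI), and the tissue was frozen free wall from the middle of the ventricle. A further 6 sham libraries, from rats whose dura was opened high in the thorax without cord injury and whose hearts were collected 7 days after surgery, show the starting level. No test compares them with another group here, but they are among the 24 libraries of the fitted model, and with only the 12 libraries compared 2234 genes were higher and 2086 lower at 12 weeks. The labels give neither the age of the rats nor a sham group at 12 weeks, so the time since injury, the age of the animal and any other change over those weeks cannot be told apart. The labels number the 1 day libraries 77 to 82 and the 12 week libraries 83 to 88, a single run of numbers, whereas the sham libraries carry the numbers 63 to 68. No label states that each library came from its own rat, so the p-values describe the spread between libraries, which may be partly technical. For the test of each gene that spread is a shared estimate over all 24 libraries.

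The sympathetic nerves that speed the heart and strengthen its beat leave the cord in the upper thoracic segments and are driven by fibres that descend from the brainstem. A complete transection at a high thoracic level cuts that descending drive, while the vagus nerve, which slows the heart, runs outside the cord and is spared. Injuries at this level are known to lower blood pressure and, over weeks, to go with a smaller left ventricle in rodents. The deposited table identifies genes by Ensembl ID without names, and none of its 23098 IDs could be paired with a symbol here. The genes are therefore described as groups by direction, size, abundance and starting level, and 4 IDs are given with their values. For the same reason the labelled tissue could not be checked against heart muscle markers, and no promoter or other sequence is shown.

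Depth differed between the groups. The 1 day libraries held 41326217 to 62308617 counts and the 12 week libraries 15002476 to 44709028, a difference of group means with an exact two-sided permutation p of 0.00649 (adjusted p = 0.013 over 2 tests, n = 6 per group). More genes were detected at 1 day, 17466 ± 124 against 16976 ± 423 (SD, n = 6; exact permutation p = 0.013, adjusted p = 0.013). With every library thinned to 15002476 counts the numbers were 16617 ± 65.4 and 16514 ± 235, and the exact permutation p was 0.316. In the 12 week group 2 libraries stand apart: replicate 1 is the shallowest, and replicate 3 had the lowest mean correlation with its own group (0.968, against 0.973 to 0.980 for the other 12 week libraries and 0.985 to 0.987 for the 1 day libraries).

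At 12 weeks, 2686 genes were higher and 2420 were lower than at 1 day. These are 17.8% and 16.1% of the 15065 genes tested, together 33.9% (edgeR quasi-likelihood test, Benjamini-Hochberg adjusted p under 0.05). The calls thus took in about as many genes in each direction, and the split leaned the other way, with 2396 higher and 2673 lower, when libraries were scaled by their upper quartile. Over all genes tested the median log2 fold change was 0.0042, and 50.5% of the values were positive. In tissue RNA, fewer cells of a type and less RNA per cell cannot be told apart. Without 12 week replicates 1 and 3, a pair left out after the data were seen, 2282 genes were higher and 2168 lower. Of the genes called with all libraries, 77.3% of the higher and 80.8% of the lower were among these, and none was called in the opposite direction. With all libraries thinned to the same depth, 2176 genes were higher and 2126 lower.

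**Figure D1:**
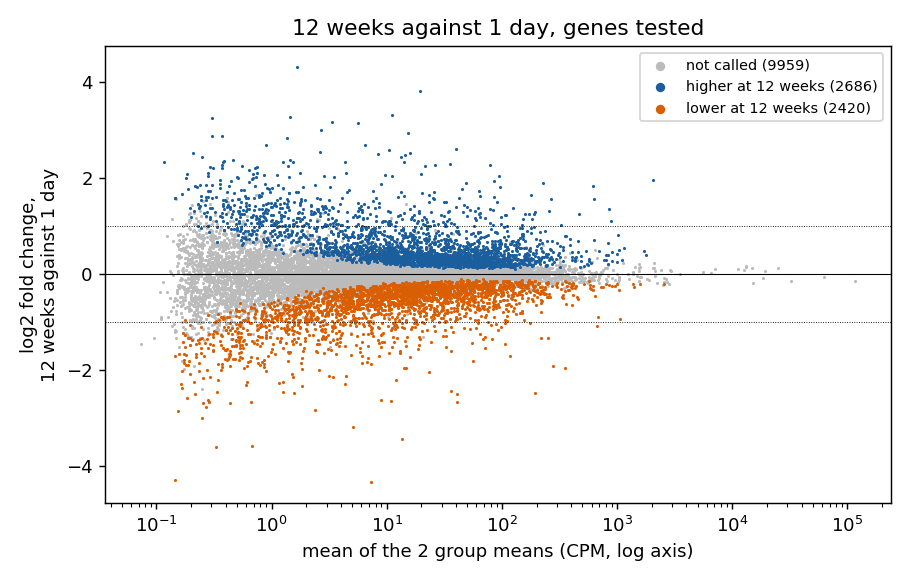
Log2 fold change at 12 weeks against 1 day (vertical axis) by the mean of the group means in CPM (horizontal log axis), 1 point per gene tested. The 2686 genes higher at 12 weeks and the 2420 lower ones are coloured, dotted lines mark a change of 2-fold, and large changes lie mostly at low abundance.

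Most of the called differences were small. The median size was 1.33-fold among the higher genes and 1.45-fold among the lower ones. Under 1.5-fold lay 65.7% of the higher genes and 55.4% of the lower genes, and 10% of each exceeded 2.45-fold and 2.51-fold. A difference of over 2-fold was seen in 460 higher genes (3.05% of those tested) and in 444 lower genes (2.95%). One of over 4-fold was seen in 63 (0.418%) and 51 (0.339%). The larger rises rested in part on 12 week replicate 3. Without it 41 genes were higher by over 4-fold and 55 were lower by as much. Of the 460 genes higher by over 2-fold, 399 were still called without that library and 312 were still over 2-fold, with a median log2 fold change of 1.22 in place of 1.35. Of the 444 lower genes, 410 were still called and 363 still over 2-fold, with medians of -1.32 and -1.36.

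The share of genes called differed with abundance, which is given as CPM, the count of a gene scaled to a common library size with TMM factors. Among genes averaging under 1 CPM over the 12 libraries, 9.58% were higher and 10.3% lower at 12 weeks, with a median called size of 2.51-fold. From 1 to 10 CPM the shares were 14.0% and 17.6%, and the median size was 1.58-fold. From 10 to 100 CPM they were 22.4% and 16.7%, and from 100 to 1000 CPM 23.5% and 18.2%, with median sizes of 1.28-fold and 1.25-fold. With TMM scaling, lower calls therefore outnumbered higher ones among the genes below 10 CPM, and higher calls outnumbered lower ones from 10 to 1000 CPM. The classes were not formed with another scaling, and upper-quartile scaling reversed the balance of all calls. The median standard error of a log2 fold change fell from 0.370 under 1 CPM to 0.0742 from 100 to 1000 CPM, so smaller changes could be called in the more abundant genes. Genes under 10 CPM made up 46.8% of those tested, but 73.7% of the genes higher by over 2-fold and 80.9% of the genes lower by over 2-fold.

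Above 1000 CPM lay 67 genes, which together held 46.5% of all CPM, and 22.4% of them were called. Of these, 9 were higher at 12 weeks, by 1.19-fold to 3.87-fold, and 6 were lower, by 1.16-fold to 1.92-fold. The 10 most abundant genes alone held 33.1% of all CPM, and none of them was called in either direction. Among the 100 most abundant genes, 20 were higher and 13 lower.

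**Figure D2:**
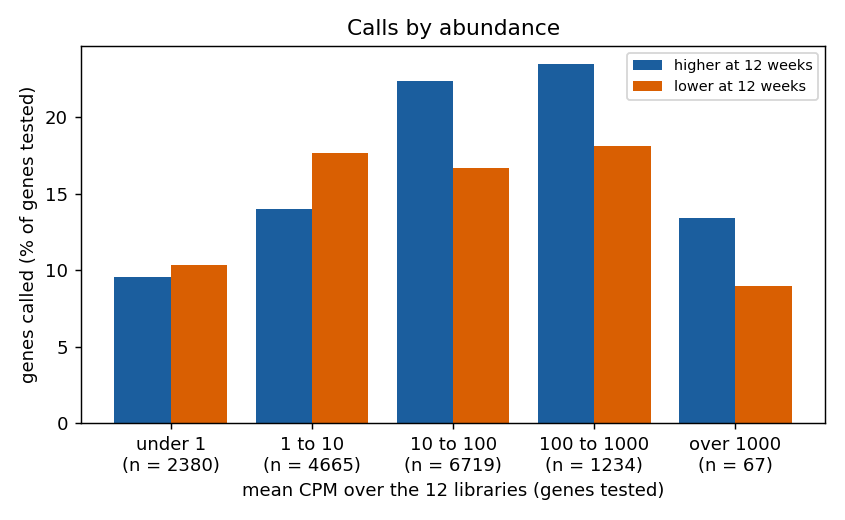
Share of tested genes called higher or lower at 12 weeks than at 1 day (vertical axis, %), by mean CPM over the 12 libraries (horizontal axis, with the number of genes tested in each class). The share called is lowest under 1 CPM and above 1000 CPM, and with TMM scaling the higher calls exceed the lower ones from 10 CPM upward.

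Summed over the called genes, the differences amounted to a few percent of the RNA counted. These sums describe the genes that the test picked and support nothing beyond it. The 2686 higher genes took 10.6 to 11.8% of the tested counts in the 1 day libraries (median 11.4%), 12.5 to 13.9% in sham (median 12.9%) and 14.7 to 16.9% in the 12 week libraries (median 15.6%). The 2420 lower genes took 11.4 to 12.5% at 1 day (median 11.7%), 9.69 to 10.5% in sham (median 10.2%) and 7.38 to 9.67% at 12 weeks (median 8.92%). In both sums the 3 groups did not overlap, and sham lay between the SCI groups. Replicate 3 had the highest share of the first group of genes and the lowest share of the second among the 12 week libraries.

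The sham libraries place the 1 day and 12 week levels around a starting level. They are in neither group of the contrast, although they share in the filter on low counts, the scaling and the estimate of spread. They come from another run of library numbers, and the effect of the run on these positions cannot be told apart from that of the injury. Between the 1 day and the 12 week level lay the sham level of 69.1% of the higher genes and 67.1% of the lower genes, against 40.4% of all genes tested. For such genes the hearts at 1 day and at 12 weeks deviated from sham in opposite directions, by fitted level alone and without a test of either deviation. The called genes were chosen for their gap between the 1 day and 12 week levels, and a wider gap encloses the sham level more easily. Shares above 40.4% can therefore come from that choice alone, and no conclusion is drawn from the excess. The median log2 difference of the higher genes was -0.22 for 1 day against sham and 0.19 for 12 weeks against sham. For the lower genes these medians were 0.26 and -0.24. Both differences use the same sham libraries, and each SCI group also helped to choose the genes.

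Cut at its midpoint, the sham position split the called genes about as evenly as all genes tested. For 1262 higher genes (47.0%) the sham level was nearer to that at 1 day, so the larger deviation was the one at 12 weeks, and for the other 1424 it was nearer to that at 12 weeks, so the larger deviation was the acute one. Among the lower genes 1235 (51.0%) had sham nearer to 1 day. Over all genes tested the share was 48.6%. Sham was nearer to 1 day for 52.8% of the genes higher and 60.4% of those lower by over 2-fold, and for 60.3% and 74.5% of those that differed by over 4-fold (38 of 63 and 38 of 51 genes). In both directions these shares rested in part on single libraries. Without 12 week replicate 3 the shares over 2-fold were 47.0% and 56.7% and those over 4-fold 56.1% and 69.1%, where that of all genes tested was 48.6%. Over 4-fold other single libraries moved the shares more. Without 1 day replicate 2 that of the higher genes was 55.3%, and without 12 week replicate 6 that of the lower genes was 61.2%. With limma-voom the share of the higher genes over 2-fold was 48.8%, and with the replicate block it was also 48.8%. For the lower genes over 4-fold the share ran from 61.1% to 77.4% over the alternatives. The lowest value came with the filter at a mean log2 CPM of at least 1 (11 of 18 genes), the highest with the replicate block. The genes were chosen by the same 1 day and 12 week levels that set the midpoint, and the 12 week libraries varied more. A cut on size therefore favours genes with extreme 12 week values, which can by itself place sham nearer to 1 day. The difference between these shares was not tested, and no conclusion is drawn from their rise with size. In the lower genes over 4-fold the median log2 difference from sham was -1.74 at 12 weeks and 0.83 at 1 day, and in the higher ones 1.45 and -0.98.

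Outside the range between the SCI groups, 405 higher genes (15.1%) had a sham level below both, and 366 lower genes (15.1%) a sham level above both. A sham level outside the range was less common among the called genes than among all genes tested, of which only 40.4% had it between. Their medians against sham were 0.09 at 1 day and 0.50 at 12 weeks for the higher genes, and -0.11 and -0.65 for the lower genes. That both times deviate from sham in the same direction, and 12 weeks by more, follows from how this class is formed. Another 426 higher genes (15.9%) had a sham level above both, with medians of -0.50 at 1 day and -0.10 at 12 weeks. A further 431 lower genes (17.8%) had one below both, with 0.63 and 0.13. Here the class itself fixes a deviation in the same direction at both times that is smaller at 12 weeks. None of these deviations from sham was tested.

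**Figure D3:**
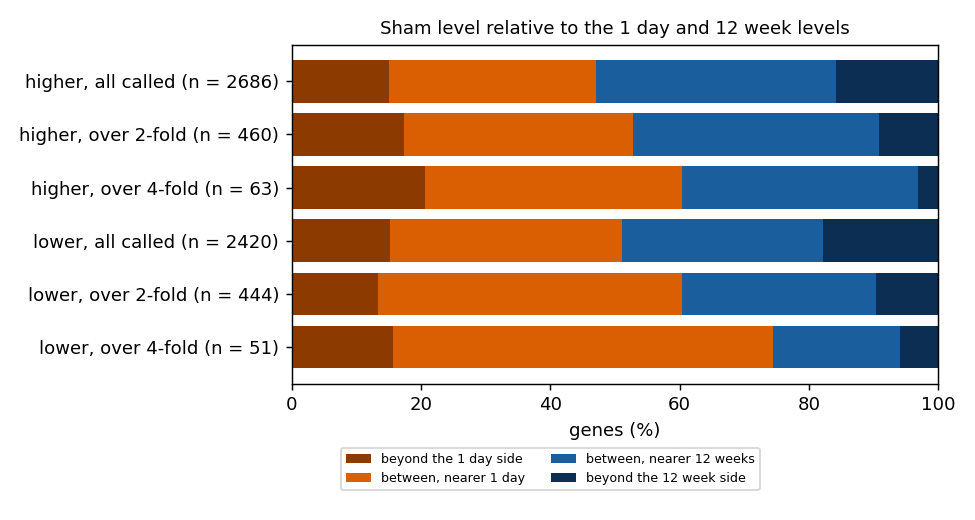
Position of the sham level relative to the 1 day and 12 week levels, as a share of the genes in each class (horizontal axis, %), for all called genes and for those over 2-fold and over 4-fold. The classes with sham nearer to 1 day or beyond it take 47.0% of all higher genes and 74.5% of the genes lower by over 4-fold.

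Single sham libraries gave a similar picture. Each was set against the 1 day and the 12 week mean on the log2 CPM scale. The share of higher genes for which it lay nearer to 1 day was 42.4 to 53.0% over the 6 sham libraries, and that of lower genes 47.2 to 55.7%. For all genes tested the shares were 46.8 to 52.3%, a range that overlaps both.

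The 12 week libraries varied more among themselves than the 1 day libraries, in large part through replicate 3. The biological coefficient of variation, the spread between libraries beyond counting noise as a share of the level, was 0.153 at 1 day and 0.214 at 12 weeks, and 0.124 in sham. Without 12 week replicate 3 the value at 12 weeks was 0.160. The SD of log2 CPM was larger at 12 weeks for 71.3% of the genes tested, and for 60.4% without replicate 3, which leaves 5 libraries. Neither difference in spread was tested, and the lower depth at 12 weeks moves with it. The test of each gene pools the spread over all 24 libraries, with a common coefficient of 0.169. Its p-values therefore reflect the larger 12 week spread only as a part of that pool. On the first principal component of the 12 libraries, which held 36.3% of the variance, the 1 day libraries lay between -38.8 and -22.0 and the 12 week libraries between 15.2 and 62.2. On the second, with 15.7%, the 1 day libraries lay between 0.926 and 16.3, while the 12 week libraries ran from -40.2 (replicate 1) to 47.5 (replicate 3).

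The 12 week library farthest from 1 day was most often replicate 3. Among the higher genes, replicate 3 was the highest of the 6 libraries for 49.0%, replicate 5 for 20.9% and replicate 4 for 11.5%, with 4.99 to 8.38% for the others. Over all genes tested replicate 3 was the highest for 27.2%, while replicates 5 and 4, with 19.5% and 10.9%, were so about as often as among the higher genes. Among the lower genes it was the lowest for 43.7%, against 27.6% of all genes tested. In the 1 day group replicate 6 was the highest library for 27.7% of the lower genes, against 18.7% of all genes tested.

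Many of the called genes separated the libraries completely. The test picked these genes from the same libraries, so the separation describes the calls and adds no support to them. In 1051 genes, 6.98% of those tested, every 12 week library lay above every 1 day library in CPM, and in 963 genes, 6.39%, every one lay below. Of the called genes 1039 of the higher (38.7%) and 957 of the lower (39.5%) were of this kind. A further 29.4% and 28.9% had 5 of the 6 libraries outside the 1 day range, and 18.8% and 17.8% had 4. At the other end, 94 higher and 131 lower genes had at most 2 of the 12 week libraries outside that range. In these genes most 12 week libraries lay within the range of the 1 day libraries or beyond its other end.

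Each library was then compared with genes called without it. The test was run on the remaining libraries, and the omitted library was placed on one or the other side of the midpoint between the group means of the rest. The 1 day libraries lay on the side of their own group for 78.9 to 90.3% of the genes so called, and for 64.9 to 72.6% of all genes tested. The 12 week libraries did so for 63.9 to 85.2% of the called genes and for 57.4 to 69.0% of all. The lowest share, 63.9%, belonged to replicate 1, the shallowest library, and the next, 71.9%, to replicate 2. Replicate 3, with 79.0%, did not stand out here, and replicate 4 had the highest share of its group. In all 12 libraries the share was higher for the called genes than for all genes tested.

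**Figure D4:**
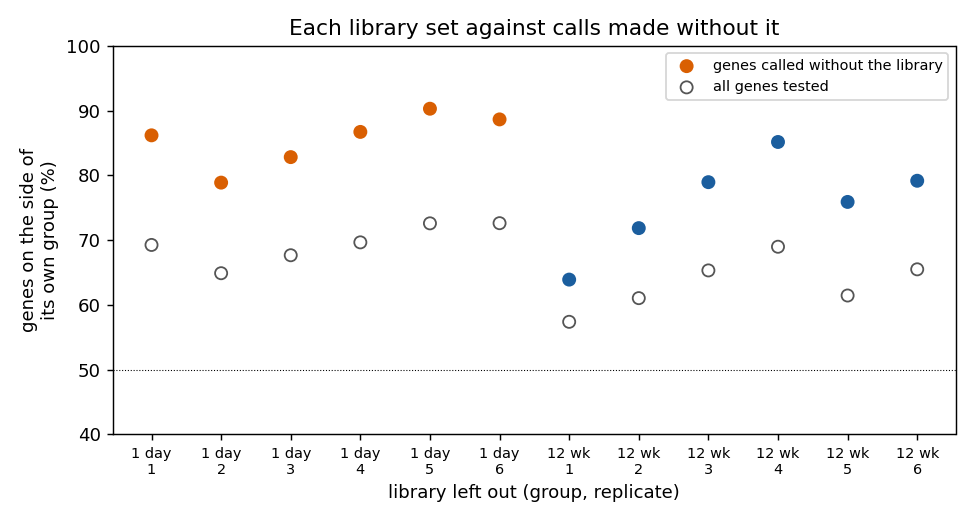
Share of genes (vertical axis, %) for which each of the 12 libraries (horizontal axis, group and replicate) lay on the side of its own group when left out of the test. Filled points are genes called without that library (orange for 1 day, blue for 12 weeks), open points all genes tested, and the filled points lie above the open ones in every library, from 63.9% to 90.3%.

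The 4 IDs given below were picked as the 2 largest rises and the 2 largest falls among called genes whose groups did not overlap and whose log2 CPM averaged 1 or more, a choice among 950 higher and 830 lower genes. Being the extremes, they show the form of the largest changes and not their usual size. The largest rise was that of ENSRNOG00000007545, with 0.865 to 5.06 CPM at 1 day (median 2.42), 1.79 to 3.90 in sham (median 2.42) and 5.99 to 136 at 12 weeks (median 19.3). All 12 week libraries were above all others, and the 1 day and sham values overlapped. The mean rose from 2.58 ± 1.60 CPM to 36.0 ± 49.2 CPM (SD, n = 6). Its log2 fold change was 3.81 (SE 0.595, edgeR adjusted p = 3.89e-05). Replicate 3 alone had 136 CPM and the other 12 week libraries at most 23.1. Without it the log2 fold change was 2.65 (edgeR adjusted p = 3.75e-05).

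The next largest rise, that of ENSRNOG00000003538, took a different course. It lay at 2.19 to 16.2 CPM in sham (median 7.62), at 1.23 to 3.05 at 1 day (median 2.01) and at 3.16 to 82.1 at 12 weeks (median 7.66). The 12 week libraries were all above those at 1 day, but sham overlapped both groups, and its median was close to that at 12 weeks. The log2 fold change was 3.31 (SE 0.646, edgeR adjusted p = 0.000385), and again replicate 3 had the highest value, 82.1 CPM where the others had at most 14.4. Without it the log2 fold change was 1.95 (edgeR adjusted p = 0.00161), and with limma-voom and sample weights 2.07 (limma adjusted p = 0.00775).

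The larger of the falls was that of ENSRNOG00000019183. Its level was 3.90 to 18.0 CPM at 1 day (median 7.31), 1.73 to 2.98 in sham (median 2.21) and 0.253 to 2.05 at 12 weeks (median 0.873). All 1 day libraries were above sham and above 12 weeks, while sham and 12 weeks overlapped. The mean fell from 9.23 ± 5.62 CPM to 0.969 ± 0.692 CPM (SD, n = 6). Its log2 fold change was -3.19 (SE 0.526, edgeR adjusted p = 7.2e-05). Here replicate 3, with 2.05 CPM, was the 12 week library nearest to 1 day, and without it the log2 fold change was -3.49. The count was as low as 4 in a 12 week library, so that the low end is set by few reads.

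The smallest standard error of the 4 belonged to ENSRNOG00000001469. It had 49.9 to 105 CPM at 1 day (median 68.1), 22.3 to 66.6 in sham (median 48.6) and 5.65 to 14.5 at 12 weeks (median 11.8). The 12 week libraries were below all sham and all 1 day libraries, and sham and 1 day overlapped. The mean fell from 70.8 ± 19.8 CPM to 11.1 ± 3.06 CPM (SD, n = 6). Its log2 fold change was -2.68 (SE 0.269, edgeR adjusted p = 3.02e-07). Replicate 3 was the 12 week library farthest from 1 day, with 5.65 CPM, and without it the log2 fold change was -2.54. The fitted difference from sham was -2.12 at 12 weeks and 0.56 at 1 day.

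**Figure D5:**
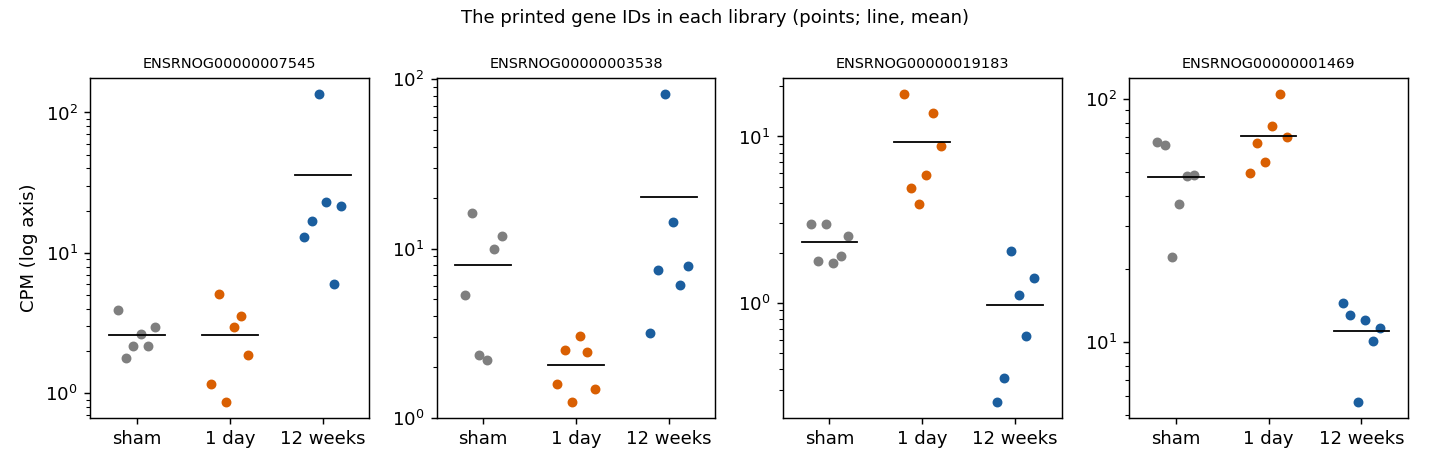
CPM (vertical log axis) of the 4 gene IDs in the sham, 1 day and 12 week libraries (points, 6 in each group), with the mean of each group (line). In each ID the 12 week and 1 day points do not overlap, and in the 2 that rose 12 week replicate 3, at 136 and 82.1 CPM, lies far above its group.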

How the data were processed

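RNA of the left ventricle was counted per gene in 24 libraries. The authors deposited 1 table of raw counts over all libraries, described in the labels as protein-coding genes. Per the labels' protocols, ribosomal RNA was depleted and strand-specific libraries were sequenced as paired ends. FastQC 0.12.1, STAR 2.7.11a, featureCounts 2.0.6 and the rat build mRatBN7.2 are named, per the submitters' processing notes. Whether counting used strand, which annotation it used and how it treated reads with several matches is not given in the sources used here, so near-identical, overlapping or antisense genes may share counts. The 26166 lines hold 23098 gene IDs, 781 of them on several identical lines, and each ID was used once.

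In R 4.3.3 with edgeR 4.0.16, filterByExpr by group left 15065 genes. TMM scaling and 1 quasi-likelihood model of all 24 libraries with a term per group (20 residual degrees of freedom) gave the contrast of 12 weeks with 1 day, two-sided, with Benjamini-Hochberg adjustment over all genes tested and a threshold of 0.05. A standard error is the log2 fold change divided by the root of F. The fit was also run on simulated counts with the same spread in every group, which cannot show the effect of a larger spread at 12 weeks. A sham position is the fitted sham level on the scale from the 1 day to the 12 week level, with 0.5 as the midpoint. The IDs printed follow the part of the naming rule that needs no symbols, 2 in each direction. Gene lists, marker lists, mitochondrially encoded genes and sequences need symbols and were not used here. The gene table at hand (GRCr8) gave no Ensembl IDs, so 0 of the IDs could be matched. The comparison, lists and rules were chosen with earlier results of these data known. Over the 66 pairs among the 12 libraries, chi-square per degree of freedom was at least 17.3, so no pair agreed within sampling noise. Alternatives used limma 3.58.1 and DESeq2 1.42.0, other scalings and filters, thinned counts, a replicate block, a threshold of 0.01, only the 12 libraries compared, and the omission of single libraries.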

Additional observations from a re-analysis of the deposited data

Results flagged for a closer look

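A single library lay far from the others of its group in 2 of the 18 groups of values looked at. Chance gives this in about 5% of groups that are independent and not selected, which does not hold here: both IDs were picked for the size of their rise, a choice that favours a single extreme 12 week library, and the library is the same in both. For ENSRNOG00000007545, 12 week replicate 3 had 136 CPM, and the other 12 week libraries had 5.99 to 23.1 CPM. For ENSRNOG00000003538 the same library had 82.1 CPM, and the others had 3.16 to 14.4 CPM. Both are the IDs printed for their large rises, and both were still called without this library. It is also the 12 week library with the lowest mean correlation with its group, 0.968, and the cause was not tested.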

How the results depend on the processing

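The count of higher genes, 2686, and that of lower genes, 2420, stayed within 1.5 times of these values under 22 of 23 alternatives each. The exception was the threshold of 0.01, which by construction calls fewer, 1657 and 1491. Leaving out single libraries gave 2340 to 2645 higher and 2139 to 2489 lower genes. Only the 12 libraries compared gave 2234 and 2086, and DESeq2 2798 and 2617. With the replicate block the counts were 2466 and 2318. The replicate numbers did not pair the libraries, since the deviations of same-numbered libraries correlated above 0.1 in 0 of 6 pairs and 1 of 6 libraries correlated best with its own number. The 4 printed IDs kept their direction and their call under all 23 alternatives, with adjusted p of at most 0.0268.

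Counts of large changes moved more. Genes higher by over 4-fold were 63, but 33 with limma-voom, 39 with thinned libraries, 41 without 12 week replicate 3, 142 with no filter and 26 among genes with a mean log2 CPM of at least 1. Genes lower by over 4-fold were 51, but 105 with no filter and 18 under the stricter filter, which also gave 204 and 209 genes over 2-fold in place of 460 and 444. Of the genes over 2-fold, those with sham nearer to 1 day were 243 and 268, but 113 and 130 under the stricter filter, and 158 of the higher genes with limma-voom. The fit of the 12 libraries holds no sham and gives no such value.

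The difference in depth was -21369000 to -15427600 counts and that in genes detected -576 to -347 without single libraries. Thinned to the same depth, the latter was -102.5 genes (exact permutation p = 0.316). The share of counts in mitochondrially encoded genes was not run because it needs gene names. Depth limits the comparison below 1 CPM, where the median standard error was 0.370.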
